A study of Arabidopsis thaliana with 12 samples.

Results

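The genes described here are AT4G02580, a nuclear gene for a subunit of mitochondrial respiratory complex I, and GLDH (AT3G47930), the gene for L-galactono-1,4-lactone dehydrogenase. They were taken from the array's annotation as probes paired with exactly 1 gene, which gave 1 probe for each. They are 2 of the 691 genes with a probe of their own, and such probes made up 692 of 3439 probes in all. Both were chosen by their levels in psao and WT on these arrays, so their difference between the genotypes is given as a description and is not tested. The arrays compared the psao mutant of Arabidopsis thaliana, which lacks the photosystem I protein PSI-O, with WT, both in ecotype Columbia 0, on 6 arrays each of total RNA. Tissue, plant age, growth conditions and the kind of allele behind psao are not given in the sources used here, and no probe with 1 gene was paired with PSAO, so the genotype was not checked by its transcript.

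Complex I is the NADH dehydrogenase of the inner mitochondrial membrane, where it passes electrons from NADH to ubiquinone and pumps protons. AT4G02580 is the plant counterpart of the mammalian subunit NDUFV2, which holds an iron-sulfur cluster and sits beside the subunit that binds NADH at the tip of the matrix arm. GLDH catalyses the last step of ascorbate synthesis in plants at the same membrane and hands its electrons to cytochrome c. In Arabidopsis GLDH is also needed for the assembly of the membrane arm of complex I, with which it is bound in assembly intermediates and not in the finished enzyme.

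The brightest probe stood at 100 on all 12 arrays, and other intensities are relative to it. Median probe intensity lay between 0.198 and 0.273 on psao arrays and between 0.0970 and 0.195 on WT arrays. Between 4.22% and 7.33% of probes stood at exactly 0 on psao arrays, and between 4.68% and 15.1% on WT arrays, where WT arrays 1 and 2 held the most zeros. Separate plants or cultures are not named in the labels, so SDs and p-values reflect array-to-array spread, which may be technical. In bulk RNA, fewer cells of a type and less RNA per cell cannot be told apart. Tissue was not labelled, and of 29 marker genes for green leaf, seed and root 1 had a probe of its own, the light-harvesting gene LHB1B2. Its percentile rank was at least 99.2 on every array.

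AT4G02580 was dimmer in psao on every array. Its deposited intensity was 0.05004, 0.0702, 0.0103, 0.00343, 0.00870 and 0.0188 on psao arrays 1 to 6, against 0.130, 0.0962, 0.0813, 0.0943, 0.148 and 0.155 on WT arrays 1 to 6. The groups did not overlap, although the brightest psao array, array 2, lay only 0.0111 below the dimmest WT array, array 3. Mean intensity was 0.0269 ± 0.0270 in psao and 0.117 ± 0.0309 in WT (SD, n = 6 each), so the mean of WT was 4.36 times that of psao. Among all tested probes 4.46% had every psao array below every WT array, and since the gene was chosen for this difference nothing is read from that share.

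On the log2 scale after quantile normalization AT4G02580 stood at -6.42 ± 1.47 in psao and -2.82 ± 0.43 in WT (SD, n = 6 each). The difference was -3.60 log2 units, which makes the level in psao 12.2-fold lower, and it was -2.79, or 6.90-fold lower, on log2 values as deposited. In the order of the 628 tested probes with 1 gene, starting from the most negative difference, AT4G02580 was number 1 in these values and number 4 with 0.05 added before the logarithm, a place that describes how it was chosen. Among the tested probes with 1 gene, 12.1% passed the limma threshold in the direction of a lower level in psao. The size of the AT4G02580 difference depended on the scale because the psao values lie close to 0: with that offset of 0.05, the difference was -1.61, or 3.04-fold lower.

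**Figure D1:**
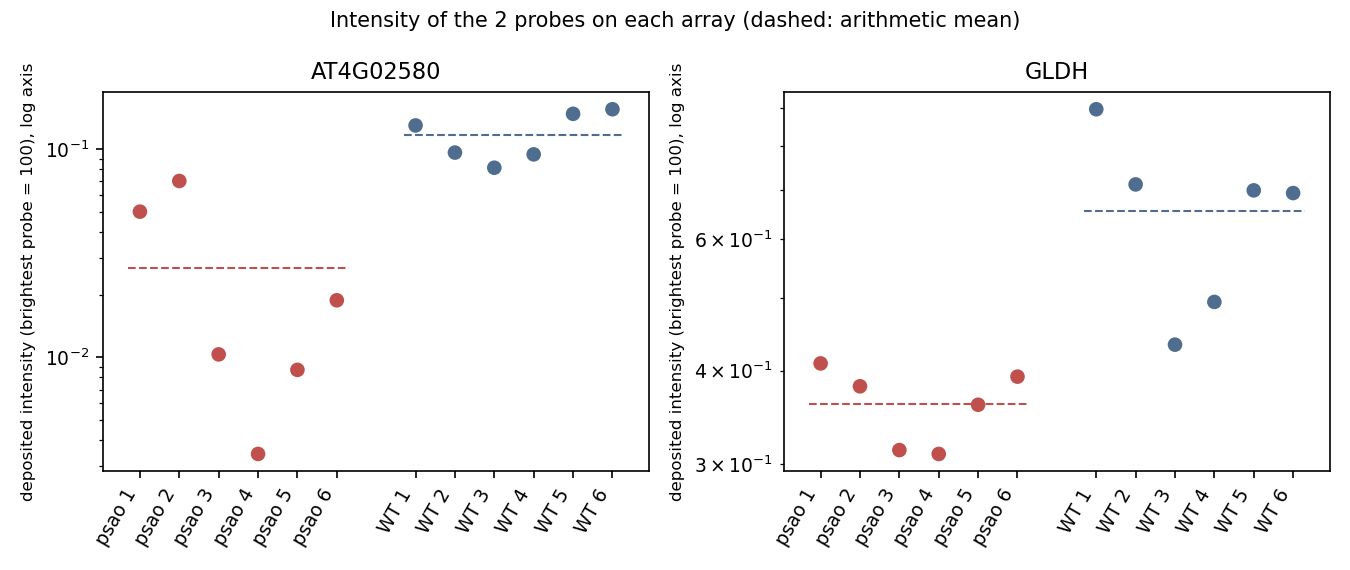
Deposited intensity (brightest probe of an array at 100, log axis) of AT4G02580 and GLDH on each array, psao left and WT right, with a dashed line at each group's arithmetic mean over 6 arrays. For both genes all psao points lie below all WT points; psao spans 0.00343 to 0.0702 for AT4G02580 and 0.309 to 0.409 for GLDH.

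GLDH was also dimmer in psao on every array, with WT on average less than 2 times as bright. Its deposited intensity was 0.409, 0.381, 0.313, 0.309, 0.360 and 0.393 on psao arrays 1 to 6, against 0.897, 0.711, 0.433, 0.495, 0.698 and 0.692 on WT arrays 1 to 6. The brightest psao array, array 1, was 0.0244 below the dimmest WT array, array 3, so the groups did not overlap. Mean intensity was 0.361 ± 0.0417 in psao and 0.654 ± 0.167 in WT (SD, n = 6 each), with the mean of WT 1.81 times that of psao.

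After quantile normalization GLDH stood at -1.68 ± 0.11 log2 units in psao and -0.59 ± 0.47 in WT (SD, n = 6 each), a difference of -1.10, or 2.14-fold lower in psao. On log2 values as deposited the difference was -0.83, or 1.77-fold lower. In the same order of 628 probes GLDH was number 46, and number 23 with the offset. Both genes were lower in psao at each of the 6 array numbers, as were 10.2% of all tested probes.

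Percentile rank within an array does not depend on how arrays are scaled, and it too was lower in psao for both genes. AT4G02580 ranked at 12.5, 16.3, 7.88, 6.98, 5.26 and 6.75 on psao arrays 1 to 6, against 55.8, 49.8, 28.6, 32.3, 41.8 and 44.8 on WT arrays 1 to 6. On psao array 4 it lay 0.552 percentage points above the share of probes at 0, and on psao arrays 3 to 6 at most 2.41 points above it, so on those arrays few probes with any signal were dimmer. On WT arrays it lay at least 22.7 points above that share. GLDH ranked between 61.1 and 66.2 on psao arrays, with a median of 64.0, and between 72.4 and 88.1 on WT arrays, with a median of 80.3. Ranks of the groups did not overlap for either gene, as for 9.98% of tested probes in this direction. Mean rank was 9.27 ± 4.22 in psao and 42.2 ± 10.3 in WT for AT4G02580, a difference of -32.9 points. For GLDH it was 63.9 ± 1.68 in psao and 80.2 ± 6.11 in WT, a difference of -16.3 points (SD, n = 6 each).

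**Figure D2:**
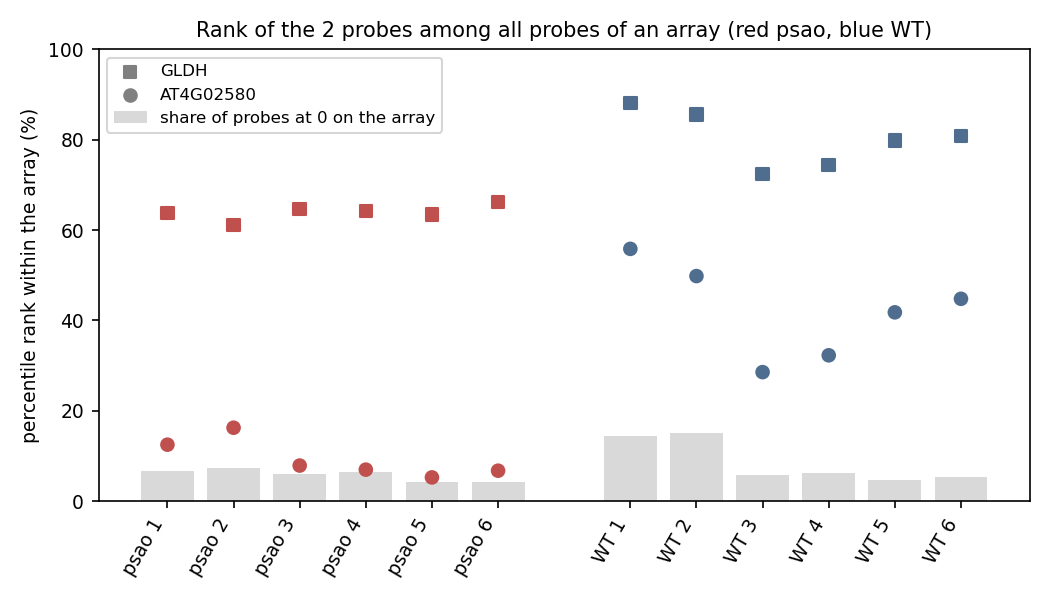
Percentile rank of GLDH (squares) and AT4G02580 (circles) among all 3439 probes of each array, psao in red on the left and WT in blue on the right, with grey bars for the share of probes at 0. AT4G02580 falls to within 2.41 points of the grey bars on psao arrays 3 to 6, whereas GLDH keeps a rank of at least 61.1 on every array.

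The spread between arrays differed between the 2 genes. The highest psao intensity of AT4G02580 was 20.5 times the lowest, against 1.91 times in WT, whereas for GLDH these ratios were 1.32 in psao and 2.07 in WT. Of all tested probes 95.8% had a smaller log2 SD over psao arrays than AT4G02580, and 1.60% had a smaller one than GLDH. Over WT arrays both genes were near the middle, with 40.0% of probes below AT4G02580 and 44.5% below GLDH. In intensity the SD of AT4G02580 was 0.0270 in psao, about as large as the mean of 0.0269, and 0.0309 in WT, beside a mean of 0.117.

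Within each genotype the arrays were set in 3 couples by array number, 1 with 2, 3 with 4 and 5 with 6. The consensus correlation of these couples over the tested probes was 0.701. No label names the couples, they were chosen with earlier results of these data known, and other ways to couple the arrays were not compared. Both genes were lower in psao in all 3 couples, by amounts that differed. The normalized log2 difference of AT4G02580 was -2.36 in the couple 1 with 2, -4.20 in 3 with 4, and -4.24 in 5 with 6. With deposited values it was -0.91, -3.88 and -3.57 in the same order. On the log2 scale the smallest difference thus lay in arrays 1 and 2. The deposited log2 mean of AT4G02580 was -4.08, -7.39 and -6.29 in psao by couple, and -3.16, -3.51 and -2.72 in WT. The gene was brightest in psao on arrays 1 and 2, whereas its WT mean there lay between those of the other couples. WT arrays 1 and 2 were the dimmest in median over all probes and held the most zeros. On the log2 scale GLDH showed another order, with normalized differences of -1.70, -0.56 and -1.03 and deposited ones of -1.02, -0.57 and -0.89. In percentile rank both genes had the smallest difference in arrays 3 and 4 and the largest in arrays 1 and 2. These differences were -38.4, -23.0 and -37.3 points for AT4G02580 and -24.4, -8.96 and -15.5 points for GLDH, in the order of the array numbers. For AT4G02580 the lead of arrays 1 and 2 over 5 and 6 was slight, as psao arrays 1 and 2 lay 3.75 points apart and WT arrays 1 and 2 lay 6.02 apart. Zeros also count in these ranks. The leaf marker LHB1B2 was also brightest on WT arrays 1 and 2, at 48.3 and 42.9, against 25.2 and 25.8 on psao arrays 1 and 2 and between 16.2 and 19.5 on all other arrays. Whether what sets arrays 1 and 2 apart has a part in these differences was not tested. With arrays 3 to 6 alone, AT4G02580 differed by -4.14 and GLDH by -0.81, both still lower in psao.

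**Figure D3:**
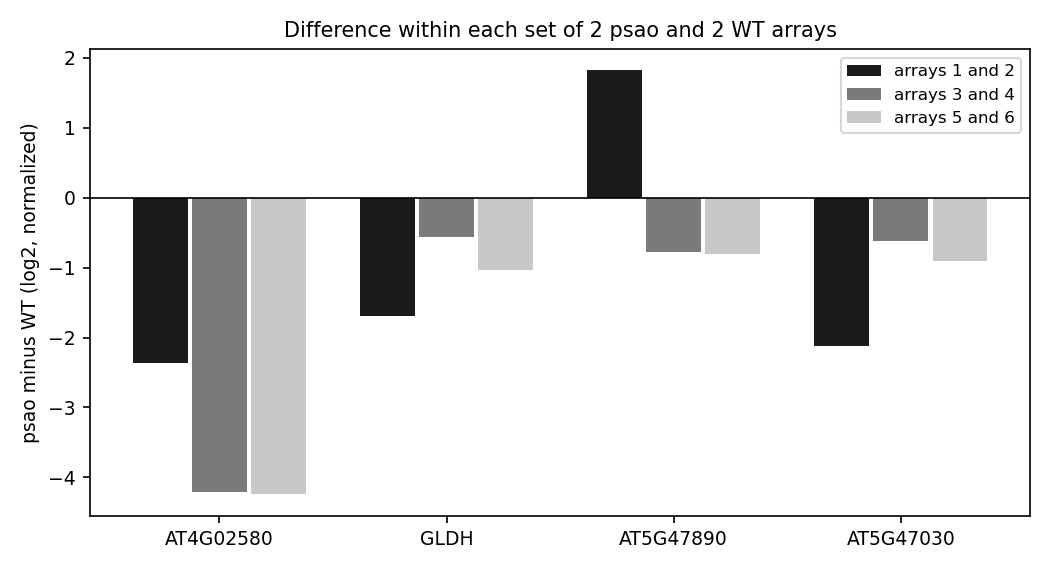
Difference in normalized log2 level, psao minus WT, within arrays 1 and 2 (black), 3 and 4 (grey) and 5 and 6 (light grey), for AT4G02580, GLDH and the 2 other measured genes of respiration. The 3 bars of AT4G02580, GLDH and AT5G47030 all lie below 0, and AT5G47890 stands at 1.82 in arrays 1 and 2 and at -0.78 and -0.81 in the other couples.

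Other genes of respiration and of ascorbate metabolism were thinly covered. Lists of 148 loci covered complexes I to IV with cytochrome c, the mitochondrial ATP synthase, the alternative oxidases and NADH dehydrogenases, the TCA cycle and the synthesis and recycling of ascorbate. Only 4 of these loci had a probe of their own, AT4G02580 and GLDH among them, and 11 others appeared only on probes paired with several genes and are not named from them. Of 39 nuclear complex I genes 2 were measured, and of 10 ascorbate synthesis genes GLDH alone. Besides the 2 genes described, 1 of 2 measured genes was lower in psao by limma and 0 higher. At the same adjusted threshold 29.8% of all 3187 tested probes changed in either direction. At an unadjusted p under 0.05 the 2 genes again gave 1 lower and 0 higher, where 688 of the 3187 probes were lower and 670 higher. With couples averaged, or as a random block, limma called 0 of the 2 genes, and 1 had an unadjusted p under 0.05 in each fit. Of all tested probes, 12 were then called lower and 45 higher with couples averaged, and 142 lower and 188 higher with the random block. At an unadjusted p under 0.05 these counts were 352 lower and 411 higher with couples averaged, and 412 lower and 430 higher with the random block. The 2 genes were unlike, at -1.21 log2 units for AT5G47030 and 0.08 for AT5G47890, beside a median of -0.04 over all tested probes.

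AT5G47030, a subunit of the mitochondrial ATP synthase, was called lower in psao in the main fit. Its deposited intensity was 0.163, 0.137, 0.188, 0.0993, 0.114 and 0.0868 on psao arrays 1 to 6, against 0.356, 0.275, 0.177, 0.211, 0.158 and 0.107 on WT arrays 1 to 6. The groups overlapped, with WT array 6 below 4 of the psao arrays, and WT arrays 1 and 2 were the brightest. After normalization it stood at -3.35 ± 0.51 in psao and -2.14 ± 0.77 in WT (SD, n = 6 each), a change of -1.21 ± 0.36 log2 units (SE), or 2.32-fold lower (limma adjusted p = 0.0228). Each of the 6 psao arrays was under the mean of WT. Its change of -0.65 on values as deposited missed the threshold (limma adjusted p = 0.120). It did not pass either with arrays 3 to 6 alone, where the change was -0.74 (limma adjusted p = 0.116), with couples averaged (0.191), with couples as a random block (0.130) or without psao replicate 6 (0.0523). Over all alternatives its adjusted p lay between 0.0112 and 0.191.

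AT5G47890, the plant counterpart of the accessory complex I subunit NDUFA2, was the only other complex I gene measured, and its test did not pass. Its deposited intensity was 0.265, 0.227, 0.124, 0.0980, 0.149 and 0.157 on psao arrays 1 to 6, against 0.0628, 0.00782, 0.198, 0.154, 0.219 and 0.172 on WT arrays 1 to 6. WT arrays 1 and 2 lay below every psao array, whereas WT arrays 3 to 6 lay above psao arrays 3, 4 and 5 and, but for WT array 4, also above psao array 6. The normalized level was -2.96 ± 0.34 in psao and -3.04 ± 1.31 in WT (SD, n = 6 each), a difference of 0.08 ± 0.51 log2 units (SE, limma adjusted p = 0.922). By couple the difference was 1.82, -0.78 and -0.81. In a fit of arrays 3 to 6 only, its difference of -0.78 passed (limma adjusted p = 0.00514, where all alternatives spanned 0.00514 to 0.977), and without WT replicate 2 it was -0.43, short of the threshold (limma adjusted p = 0.175). A difference from AT4G02580 or GLDH in response was not tested.

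The genes with the pattern most like each of the 2 were sought among 480 other probes with 1 gene and a signal on all 12 arrays, by Pearson's r of normalized log2 levels over the 12 arrays. All these values come from the same arrays and hold the psao and WT contrast, so r is a description. AT2G04700, the catalytic subunit of ferredoxin-thioredoxin reductase, was most like both genes, with r of 0.876 to AT4G02580 and 0.909 to GLDH. Its normalized level was -1.11 ± 0.15 in psao and -0.49 ± 0.08 in WT (SD, n = 6 each). Its deposited intensity lay between 0.399 and 0.591 on psao arrays and between 0.605 and 0.731 on WT arrays. These groups did not overlap, as for 4.46% of all tested probes in this direction. Since AT2G04700 was picked for its r to 2 genes that are themselves separated, nothing is read from that. CUTA, a copper-binding protein of the CutA family, was number 3 for both genes, with r of 0.823 to AT4G02580 and 0.890 to GLDH. Its deposited intensity lay between 6.10 and 8.59 on psao arrays and between 12.3 and 16.8 on WT arrays. AT1G79220 was second for AT4G02580 (r = 0.825) and AT1G62780 second for GLDH (r = 0.903). GLDH itself was number 4 in likeness to AT4G02580 (r = 0.802), while AT4G02580 was number 18 in likeness to GLDH.

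**Figure D4:**
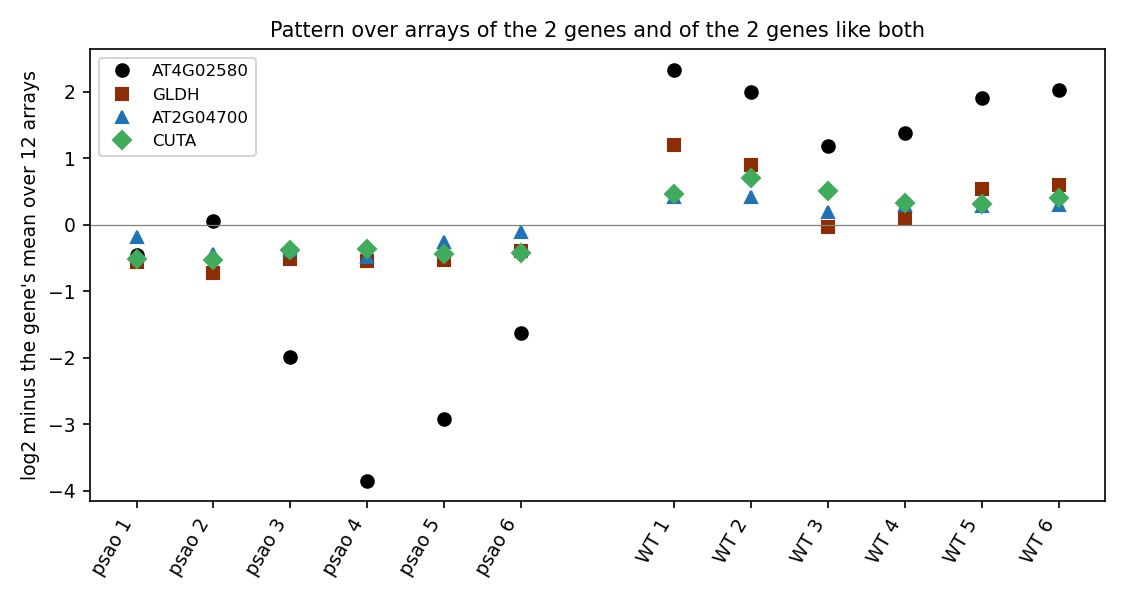
Normalized log2 level of AT4G02580, GLDH, AT2G04700 and CUTA on each array minus the gene's own mean over the 12 arrays, psao left and WT right. All 4 genes are lower on psao arrays than on WT arrays, and AT4G02580 has by far the widest range in psao.

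Once each gene's psao and WT means had been taken away, the likeness between AT4G02580 and GLDH differed between the genotypes. Over the 6 psao arrays, where AT4G02580 lies close to 0, their normalized levels had an r of -0.46, and over the 6 WT arrays one of 0.96. In r to AT4G02580 over WT arrays GLDH was number 5 of the 480 probes, and over psao arrays number 296. Each r rests on 6 arrays in 3 couples and is a description. The r of deviations over all 12 arrays was 0.165, with GLDH as number 148 of the 480 probes. In deviations AT4G02580 was most like LrgB (r = 0.843), known as the plastid glycolate and glycerate transporter of photorespiration, AT1G74070 (r = 0.780) and AT5G06930 (r = 0.762). LrgB had a level of -1.77 ± 0.85 in psao and -1.78 ± 0.48 in WT (SD, n = 6 each), a difference of 0.01. GLDH was most like AT2G23160 (r = 0.907), AT1G80450 (r = 0.890) and AT2G38550 (r = 0.874). None of these 6 was among the 4 named for likeness of levels. Likeness in deviations leaves out the difference between genotypes. That difference, psao minus WT, was 1.35 for AT1G74070 and 0.31 for AT5G06930. It was 2.80 for AT2G23160, 0.36 for AT1G80450 and -0.06 for AT2G38550. AT2G23160 was close to 0 on WT arrays 3 and 4, at intensities of 0.00321 and 0.00453. Within WT, both AT4G02580 and GLDH had their lowest deposited intensities on arrays 3 and 4.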

How the data were processed

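Total RNA of 6 psao and 6 WT arrays was measured, with groups and array numbers from the titles. The deposited intensities, 1 per probe and array, were scaled by the authors to the brightest probe, as the deposited values show. Array make, background treatment and earlier steps are not given in the sources used here. They hold no counts, so the number of arrays limits the precision.

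Probes were named from the platform annotation, and 690 of 692 probes with 1 gene matched the RefSeq table of TAIR10.1. The array's genome build is not named, so no positions are given. No probe, promoter or protein sequence was used here.

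Zeros were set missing and the other intensities put on a log2 scale. Log2 medians of the arrays, zeros included, ranged over 1.49 units, more than the 0.1 allowed, so arrays were quantile normalized. Probes with at least 4 values in each group, 3187 of 3439, were tested, psao minus WT, with lmFit and eBayes of limma 3.58.1 in R 4.3.3, two-sided, with Benjamini-Hochberg adjustment over all tested probes and a threshold of 0.05. The fit was tried on simulated data in which arrays were drawn independently, without couples. That trial cannot show how often calls are false in arrays that come in couples. Couples were also fitted as a random block (statmod 1.5.0). Percentile ranks were taken over all probes of an array, zeros included.

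Named were AT4G02580 and GLDH, every tested gene of the respiration and ascorbate lists, and, for each of the 2 genes, the 3 probes most like it in level and the 3 most like it in deviations. The 2 genes, the gene lists and the alternatives were chosen with earlier results of these data known. Deviations from the group means of same-numbered psao and WT arrays correlated with r from 0.146 to 0.254 over 2507 probes, in every pair above 0.1. Arrays of unlike number were not compared, so these r cannot tell a pairing by number from a likeness shared by couples. The main fit used no pairing, and the array number was a block in an alternative fit only.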

Additional observations from a re-analysis of the deposited data

Results flagged for a closer look

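In AT5G47890, WT replicate 2 stood at -5.61 log2 units, far from the nearest other WT array at -3.16, and without it the difference between psao and WT changed sign. In AT1G74070, named for its likeness to AT4G02580 in deviations, WT replicate 2 stood at -1.07 log2 units, with the nearest other WT array at -0.78. Neither AT4G02580 nor GLDH had an array this far from the others of its group. In all, 30 sets of 6 values were examined. For independent values chance alone gives such an array in about 1 in 20 sets, so that 1.5 would be expected. Arrays of a couple are alike and the sets share the same arrays, so that number is a rough guide only.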

How the results depend on the processing

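AT4G02580 was lower in psao in all 22 alternatives that gave it a log2 difference, and GLDH in all 23. Every one except the offset for AT4G02580 moved by less than 1 SD between arrays. Both genes were chosen for this difference and their groups did not overlap, so the kept sign is no support. Averaging couples, fitting couples or the array number as a block, and asking for at least 2 values in each group could not move it. AT4G02580 differed by -1.61 with the offset, and ranged from -4.01 to -3.20 when 1 array at a time was left out. GLDH ranged from -1.21 to -0.95 in the same way, and from -1.35 to -0.81 over all alternatives. As percentile ranks the differences were -32.9 points for AT4G02580 and -16.3 for GLDH. Without the dimmest 25% of probes AT4G02580 was not among those tested. The count of genes of the lists called lower, 1, was 0 with values as deposited, couples averaged, couples as a random block and without psao replicate 6, so it ranged from 0 to 1 when arrays were left out. With arrays 3 to 6 alone it was also 1, but the gene was AT5G47890 and not AT5G47030. The count called higher was 0 in all 23 alternatives. AT5G47890 changed sign with the offset (-0.18), with arrays 3 to 6 alone (-0.78), with array weights (-0.56), and without psao replicate 1 (-0.03) or WT replicate 2 (-0.43), and ranged from -0.43 to 0.26 when 1 array at a time was left out. Over all probes, 472 were called higher and 477 lower. With values as deposited these were 763 and 223, with the median of all probes moved by 0.43 and 77.4% of calls higher in place of 49.7%. With couples averaged they were 45 and 12 (78.9% higher), and with couples as a random block 188 and 142. Leaving out 1 array gave 386 to 463 higher and 399 to 476 lower. With the array number as a block (replicate block), AT5G47030 kept its call (limma adjusted p = 0.0202), AT5G47890 stayed at 0.922, the differences of AT4G02580 and GLDH were -3.60 and -1.10 as without it, and the block changed no call of these genes. For dim probes, signal close to 0 limits what can be read from a log2 difference.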
